A study of Homo sapiens with 12 samples.

Results

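Leukaemia target and haematopoietic regulator genes were followed in ATAC-Seq data of HEK293T cells, a human embryonic kidney cell line that is not a blood cell. The set holds 36 genes, taken by name as known targets of the MLL-AF4 fusion protein and as regulators of blood lineages. All 36 were present among the 52889 gene entries of the count table and all 36 passed the filter on low counts, so they belong to the 27579 genes tested.

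MLL (encoded by *KMT2A*) is a histone methyltransferase, and in the t(4;11) translocation of acute lymphoblastic leukaemia its amino-terminal part is joined to AF4 (encoded by *AFF1*), a scaffold of transcription elongation complexes. MLL-AF4 keeps the domains with which MLL binds unmethylated CpG-rich promoters and recruits the elongation machinery there, while the reciprocal AF4-MLL carries the carboxy-terminal methyltransferase domain of MLL. In leukaemic blasts, MLL fusion proteins keep progenitor genes such as *MEF2C*, *MYB*, *MYC*, *FLT3* and *CDK6* active. ATAC-Seq reads mark chromatin that a transposase can enter, and the values below are numbers of such reads assigned to each gene.

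The 12 samples formed 4 groups of 3 biological replicates. Mock cells carried the empty vector pSBTet-GP. At d0 the cells expressed MLL-AF4 constitutively, from a Sleeping Beauty transposon in a selected pool rather than in 1 clone. At d3 these MLL-AF4 cells had in addition been transfected transiently with an inducible AF4-MLL vector and had received 1 µg/ml doxycycline for 48 h. At d28 the cells still carried constitutive MLL-AF4, and AF4-MLL induction had ended after day 3 by a change to medium without doxycycline, an earlier exposure that is described by the study's methods and not by the sample labels. The study's methods also name blasticidin, given for the same 48 h as doxycycline. Transfection, blasticidin and doxycycline therefore cannot be told apart from AF4-MLL at d3. For the MLL-AF4 cells the methods describe puromycin selection and several weeks of culture before use, and they do not state the same for Mock cells. The harvest time of the Mock cells is not given in the sources used here. Total counts were 353430 to 501324 in Mock, 648466 to 715327 at d0, 930067 to 1186209 at d3 and 1058754 to 3539937 at d28. Mitochondrially encoded genes took on average 26.8%, 44.0%, 39.4% and 65.5% of these totals, respectively, so the nuclear depth of d28 libraries was lower than their totals. Counts are given below as normalized counts, that is, counts scaled with TMM factors to the mean effective library size. Where all libraries of a group are said to lie above or below all of another, this is no rare pattern. It held for 6.7% to 10.2% of all tested genes, depending on the comparison and direction, and for 7.37% that were higher at d0 than in Mock.

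The fusion partners were looked at first, as a check of the labels, and this check did not separate d0 from Mock. *KMT2A* had mean normalized counts of 29.5 ± 2.19 in Mock, 39.9 ± 7.69 at d0, 61 ± 5.98 at d3 and 75.2 ± 12.6 at d28 (SD, n = 3), and the edgeR adjusted p was 0.577 for d0, 0.000212 for d3 and 9.63e-10 for d28, each against Mock. *AFF1* lay between 52.5 ± 10.5 in Mock and 69.2 ± 9.03 at d0 and passed no test (adjusted p 0.491 for d0 against Mock). *KMT2A* was thus not distinguishable from Mock at d0, where MLL-AF4 is labelled, and had its highest mean at d28, which is labelled with MLL-AF4 alone. Reads from a transgene and from the endogenous gene are not separated by this count. All 10 genes fixed as HEK293T markers were tested, with a summed normalized count of 268 to 282 in Mock and 224 to 299 in the other libraries, and 0 of 10 differed between any pair of groups at an adjusted p below 0.05 in edgeR. The 8 blood cell markers, by contrast, summed to 36.9 to 59.9 in Mock and 40.1 to 58.2 in the other libraries, and 7 of 8 were above the filter.

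Promoters of the 4 genes below are shown since, beside *MYC*, they are the members whose edgeR test of d0 against Mock had an unadjusted p below 0.05, and since CpG-rich DNA is what the MLL part of the fusion binds. The sequences are RefSeq windows of GRCh38.p14 from 250 bases before to 50 bases after the annotated start, written 5′ to 3′ on the strand of the gene, with every CpG in capitals. They lie at chr2:144520070-144520369 for *ZEB2*, chr5:88904056-88904355 for *MEF2C*, chr10:63521841-63522140 for *JMJD1C*, all 3 on the minus strand, and at chr6:156775776-156776075 on the plus strand for *ARID1B*.
ZEB2: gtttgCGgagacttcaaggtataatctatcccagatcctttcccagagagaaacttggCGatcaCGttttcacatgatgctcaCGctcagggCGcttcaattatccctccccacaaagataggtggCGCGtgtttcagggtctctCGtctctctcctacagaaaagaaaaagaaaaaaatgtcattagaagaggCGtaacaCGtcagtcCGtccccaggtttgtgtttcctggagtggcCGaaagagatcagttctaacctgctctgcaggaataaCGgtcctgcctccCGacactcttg
MEF2C: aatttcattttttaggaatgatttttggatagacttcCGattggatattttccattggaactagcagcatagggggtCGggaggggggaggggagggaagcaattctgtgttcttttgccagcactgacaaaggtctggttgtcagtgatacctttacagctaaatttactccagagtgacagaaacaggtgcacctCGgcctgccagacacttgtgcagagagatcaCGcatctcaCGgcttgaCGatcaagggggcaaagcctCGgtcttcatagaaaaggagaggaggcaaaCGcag
JMJD1C: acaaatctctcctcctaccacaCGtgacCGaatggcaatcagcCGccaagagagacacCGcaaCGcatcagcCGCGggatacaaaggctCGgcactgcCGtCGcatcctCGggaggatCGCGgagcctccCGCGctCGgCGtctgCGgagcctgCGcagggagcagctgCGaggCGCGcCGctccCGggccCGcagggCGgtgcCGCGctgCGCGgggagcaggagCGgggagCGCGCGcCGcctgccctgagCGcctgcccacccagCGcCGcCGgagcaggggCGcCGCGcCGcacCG
ARID1B: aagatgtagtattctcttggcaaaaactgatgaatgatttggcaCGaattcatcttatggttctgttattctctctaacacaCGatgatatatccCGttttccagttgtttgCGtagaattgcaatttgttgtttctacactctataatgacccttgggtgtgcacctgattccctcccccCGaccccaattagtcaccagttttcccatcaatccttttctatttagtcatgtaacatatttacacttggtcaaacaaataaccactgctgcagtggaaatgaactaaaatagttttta

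The 4 windows differ widely in CpG. *ZEB2* holds 14 CpG in 300 bases, *MEF2C* 8, *ARID1B* 5 and *JMJD1C* 44. The table held such a window for 32 of the 36 genes, with a median of 29.5 CpG and a range from 5 (*ARID1B*) to 53 (*ERG*), beside a median of 23 over 15030 tested genes and of 14 over all 27305 windows. *MYC*, *LMO2*, *LGALS1* and *SPI1* had no window. A gene with several annotated starts was given only the window nearest its 5′ end. Of the genes with at most 15 CpG, *ARID1B*, *EBF1*, *MEF2C* and *ZEB2*, the d0 against Mock log2 fold change was 0.37, 0.53, 0.55 and 0.90. The 8 genes with 16 to 25 CpG had a median of 0.16. The 20 genes with more than 25 CpG had a median of -0.10, with *JMJD1C* among them at 0.46. Medians of all tested genes were 0.08 for the 2524 with 0 to 5 CpG and 0.01 for the 2513 with 6 to 15. They were 0.02 for the 3632 with 16 to 25 and -0.02 for the 6361 above 25. These are descriptions of a few genes, with no test.

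The same windows were searched on both strands for 5 short motifs spelled out by their letters. The GATA motif AGATAA was present in 2 of 32 windows (*LYL1* and *TAL1*) and in 10.5% of all windows. The ETS motif CCGGAA was in 3 of 32 (*CPEB2*, *GFI1* and *TAL1*) and 17.6% of all, and the E-box CACGTG, to which MYC binds, in 5 of 32 (*CDK6*, *FLT3*, *IGF2BP3*, *JMJD1C* and *TERT*) and 7.4% of all. The RUNX motif TGTGGT was in 2 of 32 (*BCL2* and *JMJD1C*) and 13.2% of all, and TATAAA in 2 of 32 (*CEBPA* and *PAX5*) and 12% of all. A match describes letters in the window and is no measure of binding.

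The d0 against Mock comparison asked which of these genes were more or less accessible in cells that express MLL-AF4 alone. *ZEB2* was the gene that rose: 1 of 36 members passed the edgeR quasi-likelihood test at an adjusted p below 0.05, beside 0.609% of all tested genes. At an unadjusted p below 0.05, 5 of 36 members were found, all higher at d0 (*ARID1B*, *JMJD1C*, *MEF2C*, *MYC* and *ZEB2*), and these 13.9% stand beside 5.04% of all tested genes that were higher, 4.61% that were lower and 9.65% in either direction. All 5 are in the class called fusion target regulators here, 9 transcription and chromatin factors (*MEF2C*, *MYB*, *MYC*, *ZEB2*, *JMJD1C*, *ARID1B*, *BCL11A*, *LMO2* and *LMO4*). The classes were set by hand by role, with results of these data known, and known fusion targets with another role are elsewhere, such as *CDK6* (-0.10 (SE 0.20)) under the cell cycle and *FLT3* (-0.19 (SE 0.66)) under the receptors. The median log2 fold change of the 36 genes was 0.20, with 21 above and 15 below 0, and that of all tested genes was -0.00165.

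*ZEB2* encodes a zinc-finger repressor that acts in epithelial-mesenchymal transition and in haematopoietic progenitors. Its normalized counts were 95.8, 94.1 and 94.1 in Mock cells and 174, 186 and 171 at d0, then 117, 138 and 143 at d3 and 130.3, 132 and 116 at d28. Mock libraries were within 2 normalized counts of each other, on 64, 73 and 51 reads. Counting error alone is larger than that at such numbers, so this closeness is no measure of precision. Every library with MLL-AF4 lay above all Mock libraries. At d0 the mean was 177 ± 7.8 against 94.7 ± 0.966 in Mock (SD, n = 3), a log2 fold change of 0.90 (SE 0.15) or 1.87-fold, with a 95% interval of 0.61 to 1.19 and an adjusted p of 5.95e-07 in edgeR. With DESeq2 the log2 fold change was 0.89 and the adjusted p 2.9e-05, and leaving out any 1 of the 12 libraries gave 0.87 to 0.93 with an adjusted p of at most 0.000141. The call was lost where library totals alone set the scale (log2 fold change 0.45, adjusted p 0.113), a scaling in which the median of all genes lay at -0.48 and in which mitochondrial reads count in full.

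The later groups lay between. Against Mock, *ZEB2* had a log2 fold change of 0.48 (SE 0.14) at d3 with an adjusted p of 0.0586, and of 0.43 (SE 0.15) at d28 with an adjusted p of 0.111, both in edgeR and both with the same Mock libraries as the d0 comparison. From d0 to d28 it fell by 0.47 on the log2 scale (SE 0.12, 0.72-fold, adjusted p 0.0203), and from d0 to d3 the difference was -0.41 (SE 0.12) with an adjusted p of 0.0707. The d28 and d0 libraries did not overlap. This lower call at d28 held without any 1 Mock or d3 library, but was lost without any 1 of the 3 d0 or 3 d28 libraries (adjusted p up to 0.134) and with DESeq2 (0.124). Between d28 and d3 the log2 difference was -0.05 (SE 0.12), with a 95% interval from -0.29 to 0.18.

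*ZEB2* spans 136039 bases on chromosome 2 (GRCh38.p14, 144384081 to 144520119, minus strand). The antisense gene *ZEB2-AS1*, whose annotated span holds the whole promoter window printed above, had a mean normalized count of 21.98 over the 12 libraries and a d0 against Mock log2 fold change of 0.20. Strand and the counted interval are not stated for these counts, so reads of *ZEB2* and *ZEB2-AS1* cannot be told apart where the genes overlap. The 10 nearest tested genes that RefSeq places were taken, 5 on each side. Their median log2 fold change at d0 against Mock was 0.14, with 8 of 10 above 0. *ARHGAP15*, *ACVR2A* and *KYNU* were at 1.03, 0.67 and 0.51, with mean normalized counts of 4.90, 8.70 and 11.1. *MBD5* and *ORC4*, which had the highest mean counts of the 10 (37.0 and 26.3), were at 0.07 and 0.04. Below 0 were *MTCO2P5* at -4.87 and *MIR7157* at -1.39, with mean normalized counts of 0.98 and 1.14. A count summed over a culture does not separate a change in every cell from a change in a share of the cells.

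**Figure D1:**
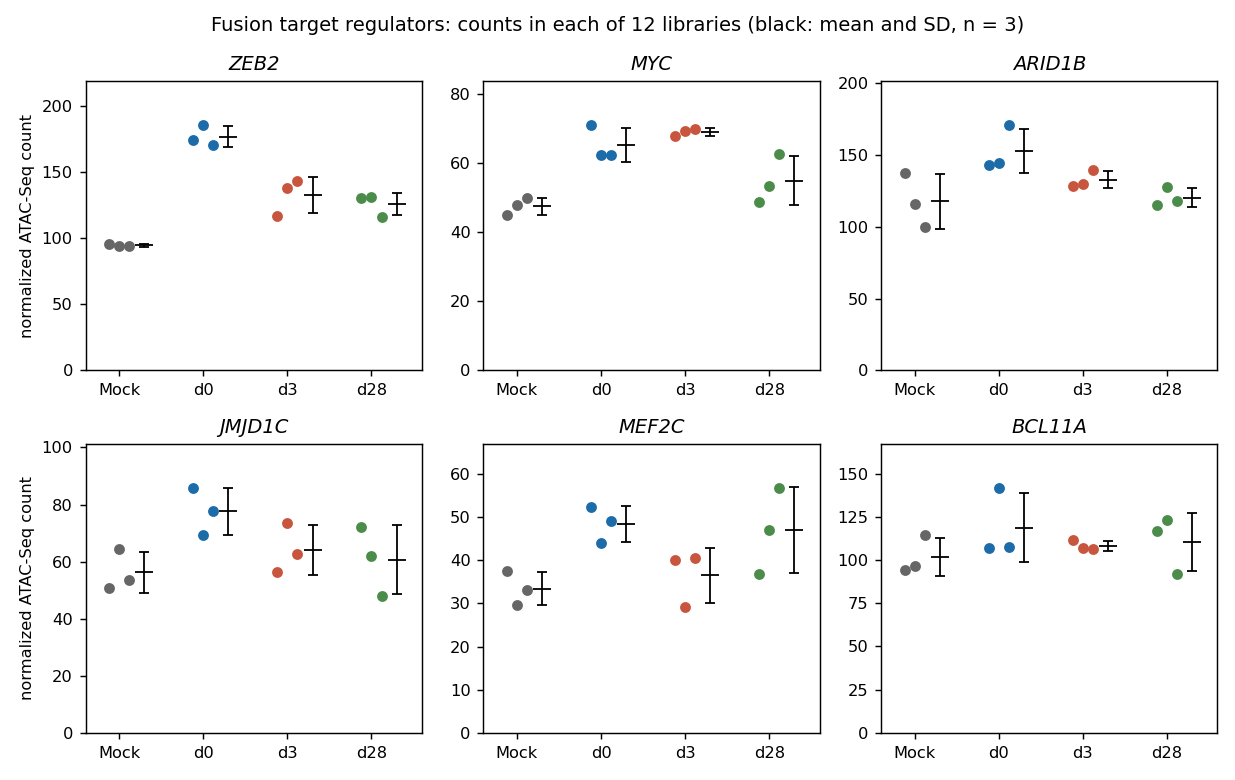
Normalized ATAC-Seq counts (vertical axis, from 0) of 6 fusion target regulators in each library of Mock, d0, d3 and d28 cells; coloured points are the 3 replicates, and the black bar is their mean with the SD. The 3 d0 points of *ZEB2*, from 171 to 186, lie above every other library, and the *BCL11A* groups overlap.

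The other fusion target regulators had smaller differences at d0. *MYC*, which encodes a basic helix-loop-helix factor of growth and proliferation, had normalized counts of 44.9, 47.7 and 49.8 in Mock cells and 70.9, 62.4 and 62.2 at d0, then 67.8, 69.3 and 69.7 at d3 and 48.5, 53.4 and 62.6 at d28. All d0 and all d3 libraries were above all Mock libraries, and the d28 libraries overlapped with Mock. Relative to Mock, the log2 fold change was 0.46 (SE 0.20) at d0 with an edgeR adjusted p of 0.411, 0.54 (SE 0.18) at d3 with 0.131, and 0.16 (SE 0.19) at d28 with 0.786. From d3 to d28 the log2 difference was -0.38 (SE 0.15), at an unadjusted p of 0.0116 and an adjusted p of 0.379.

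*ARID1B*, a subunit of the BAF chromatin remodelling complex, had counts of 138, 116 and 99.7 in Mock cells and 143, 145 and 171 at d0, then 129, 130.1 and 139.5 at d3 and 115, 128 and 118 at d28. Every d0 library exceeded every Mock library, but d3 and d28 overlapped with Mock. The log2 fold change was 0.37 (SE 0.14) for d0 against Mock (adjusted p 0.348 in edgeR) and -0.35 (SE 0.13) for d28 against d0 (adjusted p 0.17). *JMJD1C*, a jumonji-domain protein of the lysine demethylase family, had counts of 50.9, 64.5 and 53.5 in Mock cells and 85.8, 69.5 and 77.7 at d0, then 56.2, 73.6 and 62.6 at d3 and 72.3, 61.9 and 48 at d28. Its d0 libraries lay above Mock and its d3 and d28 libraries overlapped with both, with a log2 fold change of 0.46 (SE 0.19) at d0 against Mock and an adjusted p of 0.384.

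*MEF2C*, a MADS-box factor of lymphoid and myeloid progenitors that is high in MLL-rearranged leukaemia, had counts of 37.4, 29.6 and 33.2 in Mock cells and 52.3, 44 and 49.2 at d0, then 40, 29.1 and 40.4 at d3 and 36.9, 47.1 and 56.8 at d28. Here the d0 libraries were above both the Mock and the d3 libraries, while d28 reached from the Mock values to above those of d0. Against Mock the log2 fold change was 0.55 (SE 0.23) at d0 (adjusted p 0.404 in edgeR), 0.14 (SE 0.23) at d3 and 0.41 (SE 0.22) at d28 (adjusted p 0.416). From d0 to d3 it was -0.40 (SE 0.20), with an unadjusted p of 0.0407 and an adjusted p of 0.408.

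*BCL11A*, a zinc-finger repressor of fetal globin and a B cell factor, was with *ZEB2* and *ARID1B* among the 3 members of highest mean count. Its counts were 94.3, 96.7 and 114 in Mock cells and 107, 142 and 108 at d0, then 112, 107 and 106 at d3 and 117, 123 and 91.7 at d28. The groups overlapped throughout, and the log2 fold change against Mock was 0.23 (SE 0.15) at d0, with a 95% interval from -0.07 to 0.53. *LMO4*, a LIM-only adaptor of transcription complexes, was the regulator of this class with a lower mean at d0, and its counts were 56.9, 61.9 and 62.8 in Mock cells and 59.7, 45.4 and 51.8 at d0, then 43.1, 40.2 and 46 at d3 and 47.5, 47.1 and 40.8 at d28. All d3 and d28 libraries lay below all Mock libraries, with log2 fold changes of -0.48 (SE 0.19) and -0.39 (SE 0.18) and edgeR adjusted p of 0.238 and 0.346.

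*MYB*, a progenitor factor, was at low counts, namely 12, 0 and 5.54 in Mock cells and 4.98, 9.93 and 7.77 at d0, then 3.08, 5.99 and 4.75 at d3 and 11.1, 4.22 and 10.2 at d28. One Mock library of 501324 counts had 0 reads at *MYB*, which allows a share of up to 0.000598% of its counts. The spread between replicates was as large as the differences, and d28 against d3 gave 0.87 (SE 0.44) on the log2 scale with an adjusted p of 0.565. *LMO2*, an adaptor of the TAL1 and GATA complex, ranged from 5.67 to 14.9 and had no unadjusted p below 0.05. Over the 9 fusion target regulators, 8 log2 fold changes were above 0 at d0 against Mock with a median of 0.42, beside 13737 of all 27579 tested genes. It was 6 at d3 with a median of 0.14, beside 14375, and 7 at d28 with a median of 0.17, beside 14460, all with the same Mock libraries. The class was set by hand with results of these data known, and without *CDK6* and *FLT3*. These counts therefore describe its genes and are no test of fusion targets.

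**Figure D2:**
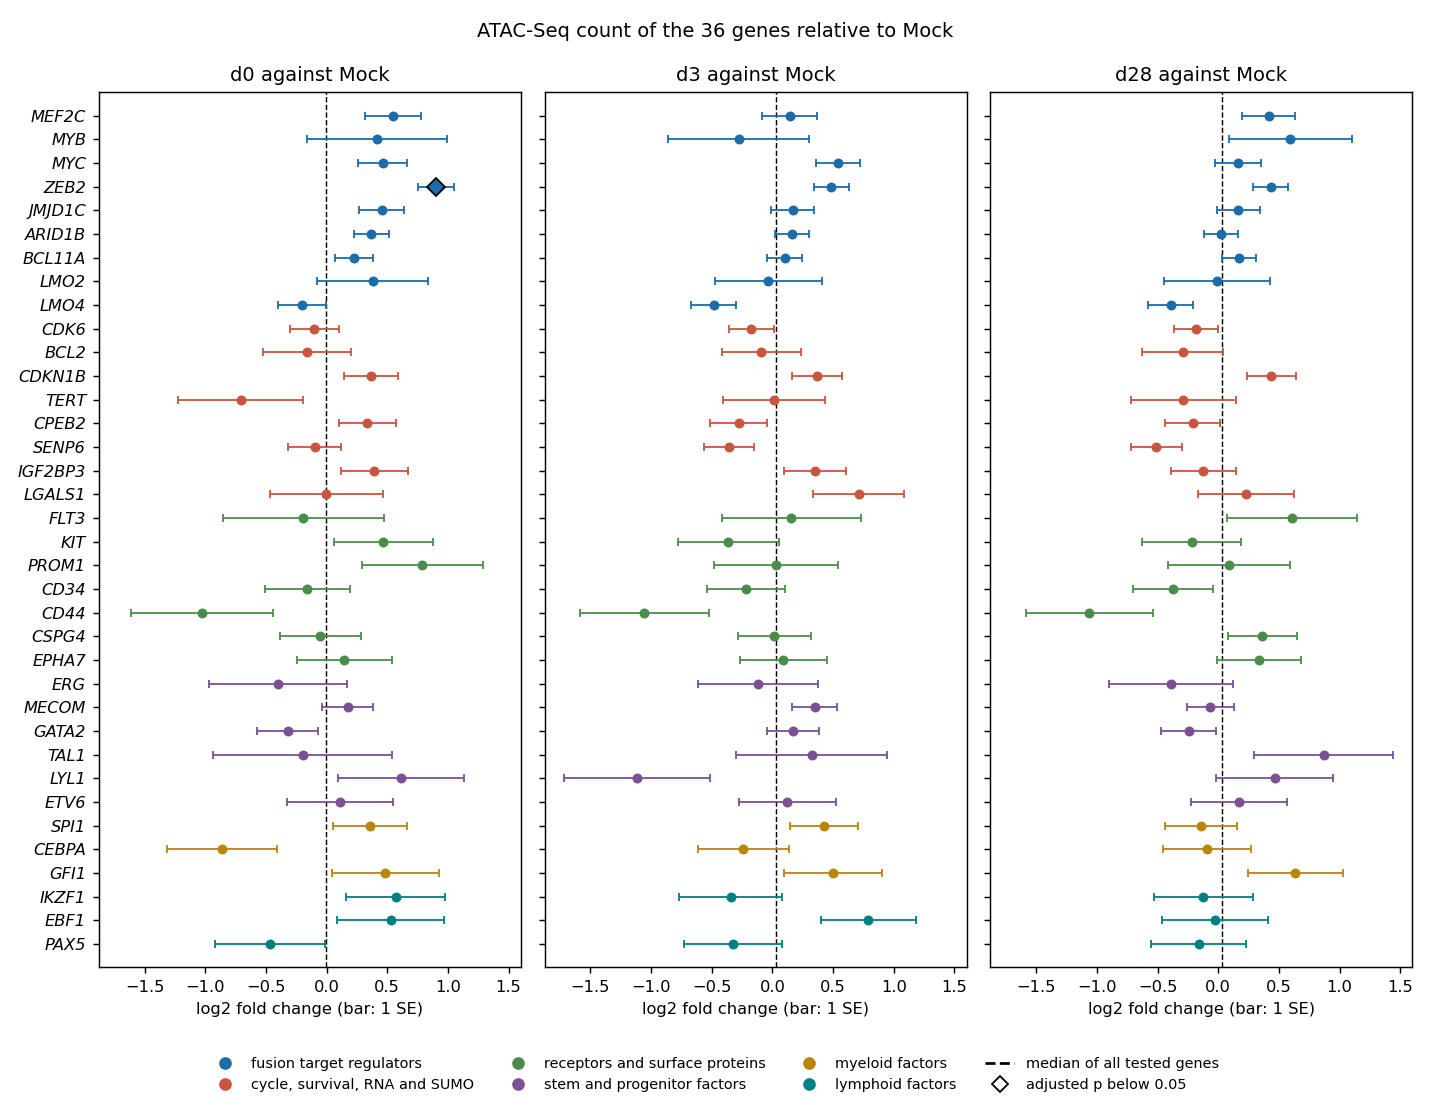
Log2 fold change against Mock (horizontal axis, bar 1 SE) of the 36 genes at d0, d3 and d28, coloured by role; the dashed line is the median of all tested genes and a diamond marks an adjusted p below 0.05. The diamond at 0.90 for *ZEB2* at d0 is the single one, and the blue points of the fusion target regulators lie mostly right of the line at d0. The roles were set by hand with results of these data known.

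Genes of the cell cycle, survival and RNA control came next. *CDKN1B*, the cyclin-dependent kinase inhibitor p27, had counts of 40.4, 43.8 and 29.5 in Mock cells and 47.3, 51 and 51.8 at d0, then 36.2, 55.6 and 58.6 at d3 and 53.8, 48.5 and 56.8 at d28. All d0 and d28 libraries lay above Mock, with one d3 library among the Mock values. Relative to Mock, its log2 fold change was 0.37 (SE 0.22) at d0 with an edgeR adjusted p of 0.626, 0.37 (SE 0.20) at d3 with 0.515, and 0.44 (SE 0.20) at d28 with 0.327. *CPEB2*, which binds the cytoplasmic polyadenylation element of mRNAs, had counts of 28.4, 38.7 and 40.6 in Mock cells and 41.1, 58.1 and 37.5 at d0, then 35.4, 22.2 and 30.1 at d3 and 26.4, 34.5 and 35 at d28. All d3 and d28 libraries were below all d0 libraries, and the log2 difference from d0 was -0.62 (SE 0.21) at d3 and -0.55 (SE 0.21) at d28, with edgeR adjusted p of 0.151 and 0.184.

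*SENP6*, a SUMO protease, had counts of 38.9, 51.6 and 51.7 in Mock cells and 49.8, 48.2 and 35 at d0, then 43.1, 26.5 and 40.4 at d3 and 27.4, 37.3 and 39.3 at d28. At d28, 2 libraries lay below all Mock libraries and the other just above the lowest of them, and the log2 fold change of d28 against Mock was -0.51 (SE 0.21) with an edgeR adjusted p of 0.245. *IGF2BP3*, an RNA-binding protein that is high in MLL-rearranged B cell leukaemia, had counts of 16.5, 32.2 and 24 in Mock cells and 33.6, 25.5 and 37.5 at d0, then 31.6, 38.5 and 24.6 at d3 and 26.4, 19.7 and 18.9 at d28. The replicates overlapped between groups in part, with a log2 difference of -0.52 (SE 0.24) from d0 to d28 and -0.47 (SE 0.22) from d3 to d28 and adjusted p of 0.331 and 0.495.

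*LGALS1*, the lectin galectin-1, had counts of 8.98, 7.74 and 14.8 in Mock cells and 6.22, 9.93 and 14.2 at d0, then 16.9, 13.7 and 19 at d3 and 14.2, 11.9 and 5.82 at d28. Values at d3 overlapped with those of d0 in one library, and the log2 difference was 0.71 (SE 0.36) with an edgeR adjusted p of 0.426. *CDK6*, the cyclin D kinase, ranged from 39.8 to 66.5, *BCL2*, the survival factor, from 11.3 to 22.1, and *TERT*, the catalytic subunit of telomerase, from 5.16 to 14.97. These 3 genes had no unadjusted p below 0.05 in any of the 6 comparisons. Over the 8 genes of this class the median log2 fold change was -0.05 for d0, -0.04 for d3 and -0.20 for d28, each against Mock.

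Receptors and surface proteins of blood progenitors had mean normalized counts over the 12 libraries from 5.49 (*CD44*) to 20.1 (*CSPG4*). The median of tested protein-coding genes lay between 12.4 and 18.8, depending on their span. *CD44*, the hyaluronan receptor, had normalized counts of 10.5, 10.3 and 5.54 in Mock cells and 4.98, 2.84 and 5.18 at d0, then 5.39, 3.42 and 3.96 at d3 and 3.69, 4.22 and 5.82 at d28, from 2 to 8 reads per library. All d0 and d3 libraries lay below all Mock libraries, and d28 overlapped with the lowest Mock library. Relative to Mock, the log2 difference was -1.02 (SE 0.59) at d0 with an edgeR adjusted p of 0.595, -1.05 (SE 0.53) at d3 with 0.432, and -1.06 (SE 0.52) at d28 with 0.373. *KIT*, the receptor of stem cell factor, had counts of 10.5, 12.9 and 9.23 in Mock cells and 18.7, 14.2 and 12.9 at d0, then 7.7, 6.85 and 11.1 at d3 and 7.39, 14.1 and 5.82 at d28. Its d0 libraries were above all d3 libraries and, by a small margin, above all Mock libraries, with a log2 difference of -0.83 (SE 0.37) from d0 to d3 and an adjusted p of 0.344.

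The other 5 receptors and surface proteins had no unadjusted p below 0.05. *FLT3*, the receptor of FLT3 ligand and a gene that is high in MLL-rearranged leukaemia, ranged from 1.71 to 10.01, with a d0 against Mock log2 fold change of -0.19 (SE 0.66). *PROM1*, which encodes CD133 and is bound by MLL-AF4 in leukaemic cells, ranged from 3.96 to 15.6, with 0.79 (SE 0.50) on the same scale and an adjusted p of 0.646. *CD34*, the stem cell antigen, ranged from 12.4 to 20.6, *CSPG4*, which encodes the NG2 antigen of MLL-rearranged blasts, from 14.6 to 26.4, and *EPHA7*, an ephrin receptor, from 9.95 to 18.9. At the SE of *FLT3* and *PROM1* a difference of the size seen for *ZEB2* was not detectable at this depth.

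Among the stem and progenitor factors, *LYL1*, a basic helix-loop-helix factor related to TAL1, had counts of 5.99, 7.74 and 5.54 in Mock cells and 12.4, 7.09 and 10.4 at d0, then 0.77, 5.13 and 3.17 at d3 and 7.39, 9.84 and 11.7 at d28, which are 1 to 14 reads per library. Every d3 library was below every library of the other 3 groups. The log2 difference was -1.73 (SE 0.52) from d0 to d3 and 1.58 (SE 0.48) from d3 to d28, with edgeR adjusted p of 0.0756 and 0.142, and against Mock it was -1.11 (SE 0.60) at d3. Without the d3 library with 1 read, replicate 1, the difference from d0 to d3 was -1.28 with an adjusted p of 0.314.

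*GATA2*, the zinc-finger factor of stem cells and mast cells, had counts of 32.9, 42.5 and 35.1 in Mock cells and 28.6, 32.6 and 28.5 at d0, then 31.6, 53.1 and 42 at d3 and 32.7, 30.9 and 29.1 at d28. The d3 libraries spread across the other groups, with a log2 difference of 0.49 (SE 0.22) from d0 to d3 and -0.41 (SE 0.19) from d3 to d28 and edgeR adjusted p of 0.335 and 0.488. *MECOM*, which encodes EVI1, had counts of 56.9, 49 and 35.1 in Mock cells and 67.2, 44 and 49.2 at d0, then 57, 59.9 and 65.8 at d3 and 43.3, 44.3 and 53.9 at d28. All d3 libraries exceeded all d28 libraries, and the log2 difference from d3 to d28 was -0.41 (SE 0.16) with an adjusted p of 0.347. *ERG* and *ETV6*, both ETS factors, ranged from 4.25 to 8.98 and from 6.33 to 17.4, and *TAL1* from 0 to 9.23, all with no unadjusted p below 0.05.

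Lineage factors of myeloid and lymphoid cells had mean normalized counts from 10.8 (*PAX5*) to 22.8 (*SPI1*). *SPI1*, which encodes the myeloid and B cell factor PU.1, had counts of 18, 21.9 and 20.3 in Mock cells and 27.4, 22.7 and 27.2 at d0, then 23.1, 24 and 34.1 at d3 and 16.4, 21.1 and 17.5 at d28. All d0 and d3 libraries lay above all Mock libraries and all d28 libraries, with log2 fold changes against Mock of 0.36 (SE 0.30) at d0 and 0.42 (SE 0.28) at d3. From d3 to d28 the difference was -0.57 (SE 0.24), with an edgeR adjusted p of 0.433. *CEBPA*, the granulocyte factor, ranged from 5.67 to 24.0 and *GFI1*, a repressor of granulocytic and stem cells, from 5.99 to 16.4, both with no unadjusted p below 0.05.

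*IKZF1*, which encodes the lymphoid factor Ikaros, had counts of 16.5, 6.45 and 9.23 in Mock cells and 17.4, 11.3 and 18.1 at d0, then 8.47, 9.41 and 7.13 at d3 and 10, 9.84 and 8.74 at d28. The d3 and d28 libraries were below all d0 libraries, with log2 differences from d0 of -0.91 (SE 0.37) and -0.69 (SE 0.36) and edgeR adjusted p of 0.267 and 0.408. *EBF1*, the early B cell factor, had counts of 13.5, 5.16 and 9.23 in Mock cells and 7.46, 7.09 and 24.6 at d0, then 19.2, 12 and 15.8 at d3 and 11.6, 7.03 and 5.82 at d28. One d0 library stood at 24.6 and the other two below 8, and the log2 difference was 0.79 (SE 0.39) for d3 against Mock and -0.82 (SE 0.32) for d28 against d3, with adjusted p of 0.42 and 0.373. *PAX5*, the B cell identity factor, ranged from 5.16 to 18.5 with no unadjusted p below 0.05.

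**Figure D3:**
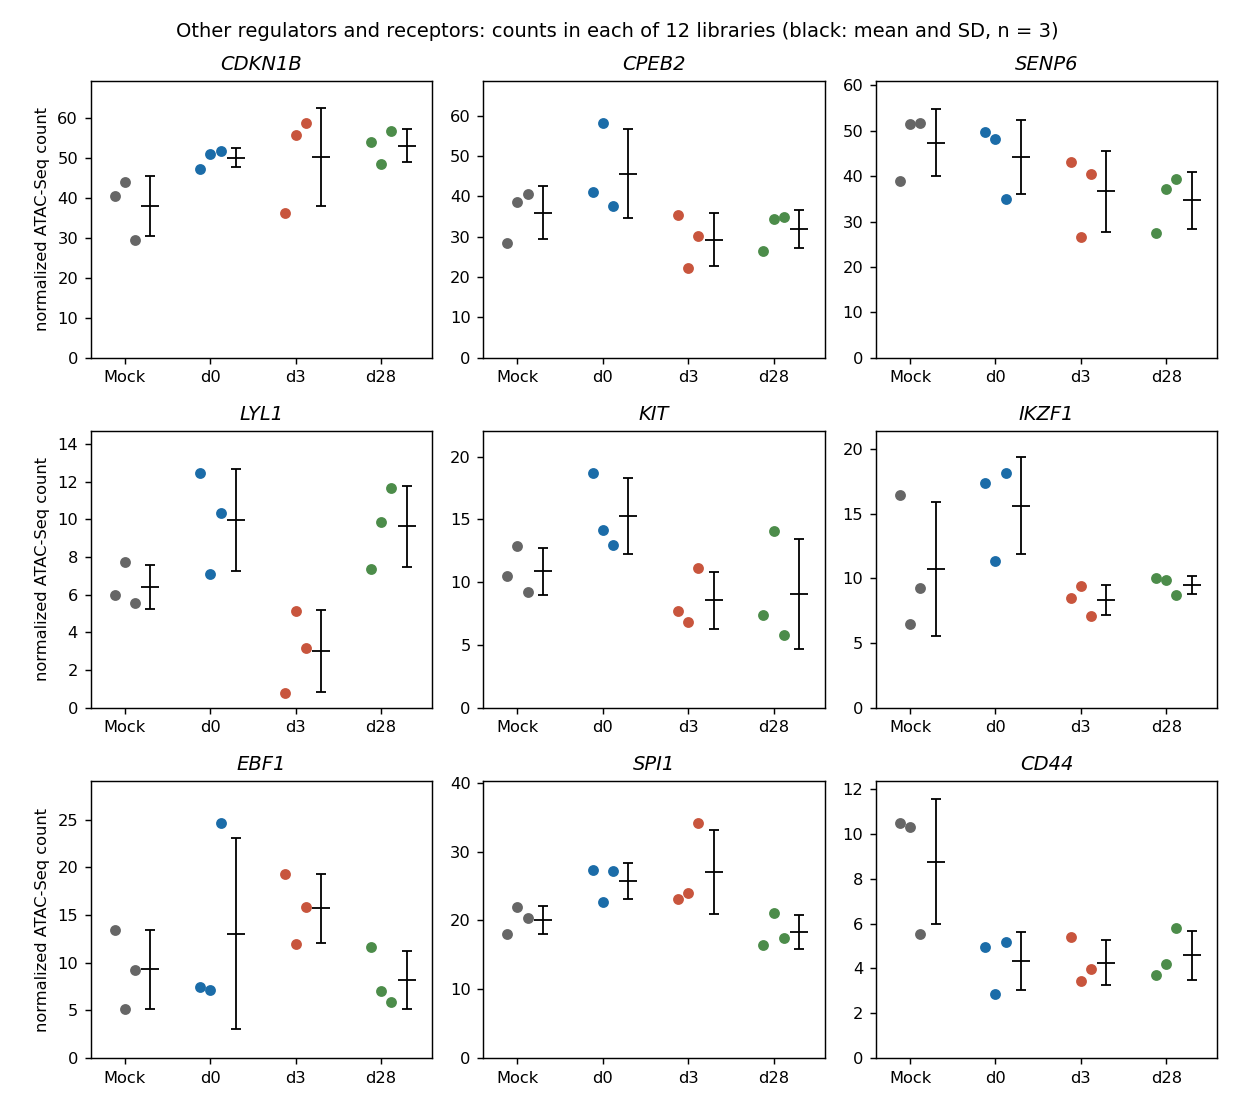
Normalized ATAC-Seq counts (vertical axis, from 0) of 9 further genes in each library of the 4 groups; points are the 3 replicates, and the black bar is their mean with the SD. The d3 points of *LYL1* lie below those of all other groups, and the highest of the *EBF1* points at d0 stands at 24.6.

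The comparisons of d3 and d28 asked how accessibility differed once AF4-MLL had been expressed and after it had been shut down. Against Mock, 0 of 36 genes passed the edgeR test at d3, beside 1.27% of all tested genes, with 5 of 36 at an unadjusted p below 0.05 (*EBF1*, *MYC* and *ZEB2* higher, *CD44* and *LMO4* lower) beside 6.45% of all that were higher and 4.85% that were lower, 11.3% together. At d28 against Mock 0 of 36 passed beside 1.45%, with 5 of 36 at the unadjusted threshold (*CDKN1B* and *ZEB2* higher, *CD44*, *LMO4* and *SENP6* lower) beside 6.63% higher and 5.85% lower, 12.5% together. DESeq2 also called 0 of 36 in both. *ZEB2* did pass at d3 against Mock without mitochondrially encoded genes (adjusted p 0.0469), with no filter (0.0304) and with TMM factors over all entries (0.0139), and at d28 against Mock with the last of these (0.0443), and *MYC* passed at d3 with TMM factors over all entries (0.0463). The shares of 13.9% at the unadjusted threshold are close to those of all genes.

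Between the fusion states, 0 of 36 passed from d0 to d3 in edgeR beside 0.91% of all tested genes, and 1 of 36, *ZEB2*, from d0 to d28 beside 1.35%. From d3 to d28 it was 0 of 36 beside 0.37%, and DESeq2 called 0 of 36 in each of these 3 comparisons. At an unadjusted p below 0.05 there were 8 of 36 from d0 to d3, with *GATA2* and *LGALS1* higher and *CPEB2*, *IKZF1*, *KIT*, *LYL1*, *MEF2C* and *ZEB2* lower, beside 11.4% of all tested genes in either direction, 6.44% higher and 5% lower. From d0 to d28 there were 5 of 36, all lower (*ARID1B*, *CPEB2*, *IGF2BP3*, *SENP6* and *ZEB2*), beside 12.6% in either direction, 6.83% higher and 5.79% lower. From d3 to d28 there were 8 of 36, with *LYL1* and *MYB* higher and *EBF1*, *GATA2*, *IGF2BP3*, *MECOM*, *MYC* and *SPI1* lower, beside 8.83% in either direction, 4.15% higher and 4.68% lower. The median log2 difference of the 36 genes was -0.04 from d0 to d3, -0.13 from d0 to d28 and 0.03 from d3 to d28, beside 0.02, 0.04 and 0.01 for all tested genes.

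A rule close to the study's own ATAC-Seq signature filter was applied to the edgeR results. It asked for an unadjusted p below 0.05, a log2 fold change beyond 1 and a mean normalized count above 2 in either group. The rule picked *CD44* at d3 and d28 against Mock, beside 4.18% and 4.8% of all tested genes. It also picked *LYL1* from d0 to d3 and from d3 to d28, beside 3.68% and 3.05%. These are genes of under 10 mean normalized counts, and *ZEB2* was in none of these lists, as its log2 fold change stayed under 1. Under this rule 0 of 36 members were picked at d0 against Mock, beside 4.39% of all tested genes, and 0 of 36 from d0 to d28, beside 4.53%.

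**Figure D4:**
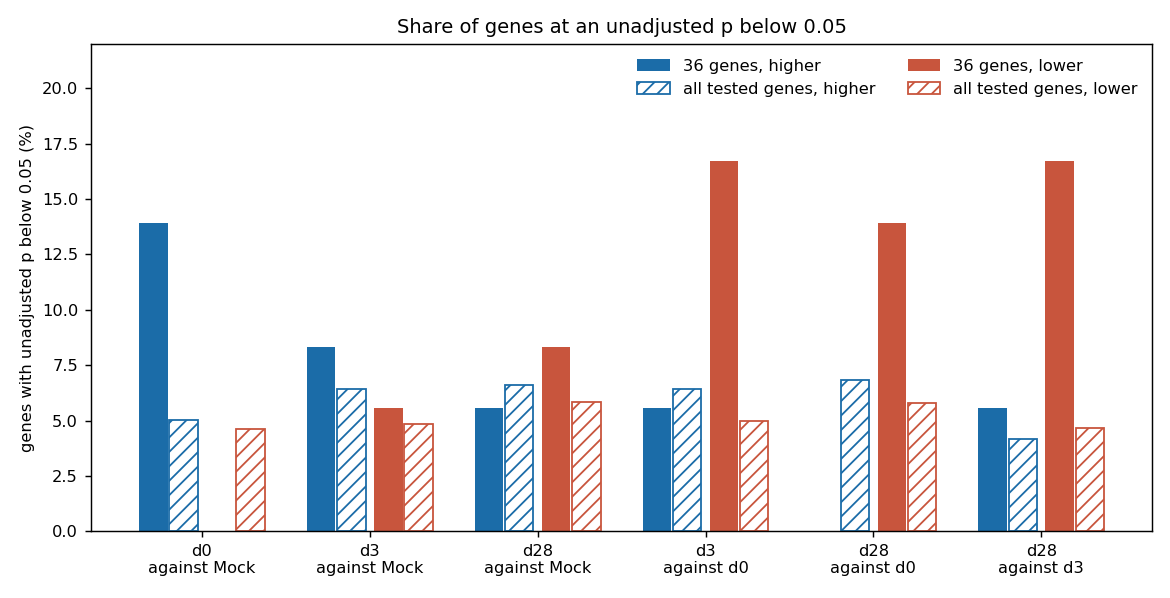
Share of genes (vertical axis, %) with an unadjusted p below 0.05 in each of the 6 comparisons, higher in blue and lower in red, for the 36 genes (filled) and for all 27579 tested genes (hatched). At d0 against Mock the filled blue bar stands at 13.9% beside 5.04%, and from d0 to d3 the filled red bar stands at 16.7% beside 5%; 1 gene of 36 is 2.78%.

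Summed over the 36 genes, normalized counts were 1030, 1035 and 1050 in Mock, 1239, 1255 and 1257 at d0, then 1086, 1114 and 1187 at d3 before 1070, 1109 and 1047 at d28. The d0 sums were above all others, and without *ZEB2* they were 1065, 1069 and 1086 against 934 to 956 in Mock. As CPM over the counts outside mitochondrially encoded genes, the sum was 2184 ± 20.03 in Mock, 2520 ± 29.67 at d0, 2242 ± 137.6 at d3 and 1903 ± 82.77 at d28 (SD, n = 3), so the order of d28 and Mock turns with the scaling while d0 was highest under both. A sum is carried mostly by the genes of high count, so it describes *ZEB2*, *ARID1B* and *BCL11A* more than the receptors. No p is given for it.

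The depth of the data set what could be seen. Of the 36 genes, 13 had a mean normalized count of 30 or more, 14 of 10 to 30 and 9 below 10. At d0 against Mock the median SE of the log2 fold change was 0.20 for the 13 genes and 0.45 for the other 23, and it was 0.16 and 0.35 at d28 against d3. At an SE of 0.45, the 95% interval reaches on each side about as far as the *ZEB2* difference of 0.90, before any adjustment for the number of genes.

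**Figure D5:**
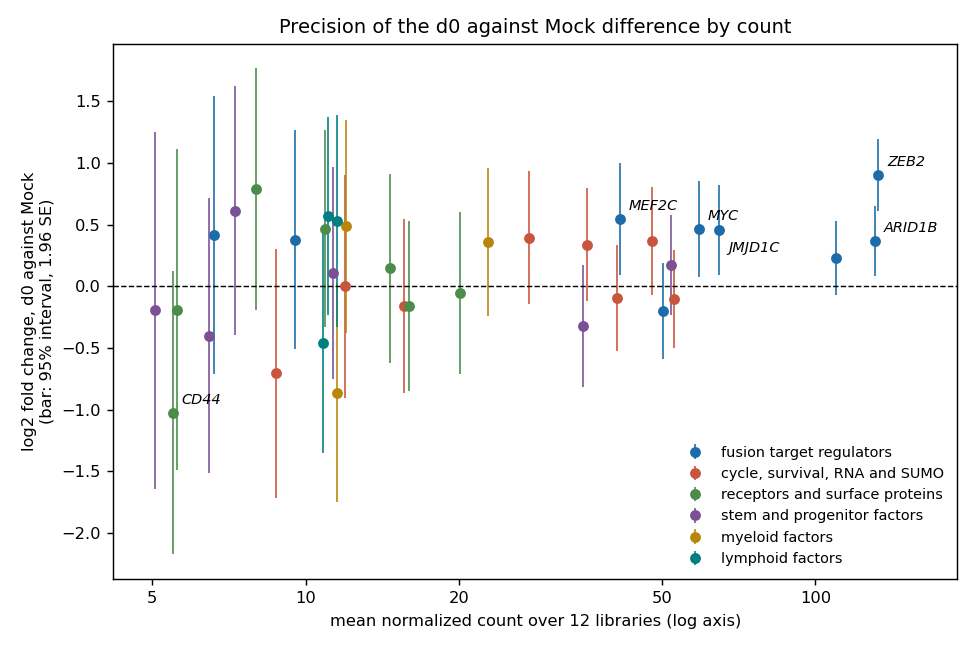
Log2 fold change of d0 against Mock (vertical axis, bar 95% interval) against the mean normalized count over 12 libraries (horizontal axis, log scale) for the 36 genes, coloured by role. Intervals narrow to the right, and that of *ZEB2*, from 0.61 to 1.19, lies farthest from 0.

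Gene length was set beside these values, since 17 of the 36 genes span more than 100 kb. Over all protein-coding genes tested, the median log2 fold change of d0 against Mock was -0.05 below 10 kb and 0.14 above 300 kb. The 13 members of 100 to 300 kb, *ZEB2* among them, had a median of 0.14, beside 0.07 for all genes of that class. The 4 members above 300 kb had 0.41 beside 0.14. Members did not follow span in order, as the 5 below 10 kb had 0.37 beside -0.05. The 5 of 10 to 30 kb had -0.20 beside -0.05, and the 9 of 30 to 100 kb had -0.05 beside 0.01. The part of span in these differences was not tested. Counts did not scale with span (median 12.4 below 10 kb, 18.8 at 100 to 300 kb and 17.2 above 300 kb), so levels of different genes are not ranked per length here.

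Other blood lineage genes were counted from a list of 44 that are no members, all of which passed the filter. In edgeR 1 of 44 (2.27%) passed at an adjusted p below 0.05 at d3 against Mock, beside 1.27% of all tested genes. In the other 5 comparisons 0 of 44 passed, beside 0.37% to 1.45% of all. At an unadjusted p below 0.05 there were 5 (11.4%) at d0, 5 (11.4%) at d3 and 3 (6.82%) at d28, each against Mock. The shares of all tested genes were 9.65%, 11.3% and 12.5%. There were 8 (18.2%) from d0 to d3, 5 (11.4%) from d0 to d28 and 7 (15.9%) from d3 to d28. Beside these stand 11.4%, 12.6% and 8.83% of all tested genes. The gene that passed was *NOTCH1*, the receptor of T cell commitment, with counts of 26.9, 24.5 and 22.1 in Mock cells and 12.4, 18.4 and 24.6 at d0, then 8.47, 12 and 14.3 at d3 and 21.6, 11.9 and 11.7 at d28. All d3 libraries lay below all Mock libraries, with a log2 fold change of -1.09 (SE 0.32) and an adjusted p of 0.048, just under the threshold. The alternative fits were read out for members only, so how far this call depends on the processing was not tested.

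The genes of this list with the largest differences at an unadjusted p below 0.05 had mean normalized counts from 0.99 (*DNTT*) to 20.35 (*RAG2*). At d0 against Mock they were *CD79A*, a B cell receptor chain, at -2.88 (SE 1.19) and *RAG1*, a recombinase of lymphocytes, at 1.47 (SE 0.56), with adjusted p of 0.395 and 0.317. *POU2AF1*, a B cell coactivator, was at -1.15 (SE 0.53) at d3 against Mock, and *BCL11B*, a T cell factor, and *RAG2*, the partner of RAG1, were at -1.38 (SE 0.50) and -0.79 (SE 0.29) at d28 against Mock. From d0 to d3 *CD33*, a myeloid antigen, was at 2.79 (SE 1.11) and *CD38*, a lymphoid surface enzyme, at -1.51 (SE 0.49). From d0 to d28 *CD79A* was at 2.47 (SE 1.15) and *BCL11B* at -1.18 (SE 0.50), and from d3 to d28 *DNTT*, the terminal transferase, was at 2.60 (SE 1.17) and *CD38* at 1.30 (SE 0.45). The differences of *CD79A*, *CD33* and *DNTT* rest on counts at the floor. *CD79A* had 0, 1 and 0 reads at d0, *CD33* 1, 0 and 0 at d0, and *DNTT* 0, 0 and 1 at d3. Of the genes named from this list, only *NOTCH1* passed the adjusted threshold, in the d3 against Mock comparison.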

How the data were processed

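ATAC-Seq libraries were made with the Nextera transposase on nuclei of HEK293T cells, and the authors deposited the raw counts per gene of 12 samples in 1 table, with no normalization. The submitters' processing notes name bcl2fastq, Bowtie2, HTSeq and GRCh38; versions, the interval counted per gene, strand, the shift of reads for the transposase and the treatment of duplicates and blacklisted regions are not given in the sources used here. The labels' protocol also mentions purification of RNA, which is not used for these libraries. Overlapping and antisense genes can therefore share reads, and duplicates would make counts less independent than the floor of 3 counts given for a count of 0 assumes, which covers counting error only.

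The test covered 27579 genes, those whose normalized counts averaged above 2 in 1 group or more. R 4.3.3 and edgeR 4.0.16 were used, with TMM factors over the tested genes, a quasi-likelihood fit to all 12 samples and the F test, two-sided, with Benjamini-Hochberg adjustment over all tested genes for each of 6 comparisons. The threshold was 0.05. An SE is the log2 fold change divided by the square root of F, and a 95% interval is 1.96 SE on each side. DESeq2 1.42.0 was an alternative. Total counts lay between 353430 and 3539937.

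The members and the gene lists were chosen with earlier results of these data known. Full values are given for members with an unadjusted p below 0.05 in any comparison and for the 3 of highest mean count; other members are given by range. Of the 44 other blood lineage genes, those past the adjusted threshold and, per comparison, the 2 with the largest change at an unadjusted p below 0.05 are named. Promoters are from RefSeq (GRCh38.p14). Beyond the term biological replicate, nothing states separate cultures, so a p-value may measure technical spread only. In a chi-square test over genes, replicate pairs had 1.06 to 1.38 per degree of freedom, where 1 is sampling noise. The d0 pairs, with 1.06 to 1.09, were close to it. The d3 pairs, with 1.28 to 1.38, and d28 replicates 1 and 2, with 1.36, differed by more.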

Additional observations from a re-analysis of the deposited data

How the results depend on the processing

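Besides 12 fits that each left out 1 library, 9 alternatives were run: RLE factors, library totals only, no mitochondrially encoded genes, filterByExpr, no filter, the replicate number as a block, only the 6 samples compared, DESeq2 and, chosen after seeing the data, TMM factors over all entries. Of 877 recomputed differences of named genes, 830 kept direction and side of the threshold, 24 gained a call, 10 lost it and 13 reversed. The number of the 36 genes called at d0 against Mock was 1 in all of them except with library totals only (0).

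With library totals only, 1411, 710, 17907, 145, 12318 and 16126 of all genes were called for d0, d3 and d28 against Mock, d3 and d28 against d0, and d28 against d3, and 0, 1, 31, 0, 23 and 27 of the 36 genes; the median of all genes was then -0.48, -0.37, -1.34, 0.10, -0.88 and -0.98. There, *ARID1B* reversed to -0.078, -0.19 and -1.33 and *BCL11A* to -0.23, -0.26 and -1.20 at d0, d3 and d28 against Mock, as did *ZEB2* (-0.93) and *CDKN1B* (-0.92) at d28 against Mock and *MYB* (-0.13) at d28 against d3. *ZEB2* at d28 against d3 was at 0.00222 with filterByExpr.

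DESeq2 called 76, 108, 129, 23, 100 and 61 of all genes in the same order, and 0 of the 36 at d28 against d0. No filter gave 245 of all genes and 0 of the 36 at d28 against d0 and 1 of the 36 (*ZEB2*) at d3 against Mock. Without mitochondrially encoded genes, 52 of all genes were called at d28 against d3, and 1 of the 36 (*ZEB2*) at d3 against Mock. TMM factors over all entries gave 2 (*MYC* and *ZEB2*), 1 (*ZEB2*) and 0 of the 36 at d3 against Mock, d28 against Mock and d28 against d0; RLE factors and filterByExpr each gave 1 (*ZEB2*) at d3 against d0. The cause was not tested.

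Leaving out 1 library gave 109 to 171, 187 to 361, 217 to 417, 100 to 264, 164 to 409 and 76 to 103 of all genes in the same order, the lowest without d0 replicate 1, Mock replicate 2, Mock replicate 2, d0 replicate 1, d28 replicate 1 and d3 replicate 1, and 1 to 1, 0 to 1, 0 to 0, 0 to 1, 0 to 1 and 0 to 0 of the 36. *ARID1B* at d28 against Mock then lay between -0.0498 (without Mock replicate 3) and 0.159, with -0.0181 without d28 replicate 2, and *ZEB2* at d28 against d3 between -0.13 and 0.0138 (without d3 replicate 3). *ZEB2* passed at d3 against Mock without d3 replicate 1 (adjusted p 0.0326) and at d3 against d0 without d3 replicate 3 (0.05).

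Replicates of equal number correlated by -0.153 to 0.0848 in their deviations from the group means. Sampling noise, 1 on the chi-square scale, was most of the difference between replicate pairs (1.06 to 1.38). A low correlation therefore cannot decide whether equal numbers share more than the number. With the replicate block, 156, 325, 371, 223, 335 and 91 of all genes were called and 1, 0, 0, 0, 1 and 0 of the 36.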
